A study of Mus musculus with 4 samples.

Results

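Small leucine-rich proteoglycans are secreted matrix proteins built around a curved stack of leucine-rich repeats, and most of them carry glycosaminoglycan chains. The genes described are *Dcn*, *Bgn*, *Aspn*, *Fmod*, *Lum*, *Prelp*, *Kera*, *Omd*, and *Ogn* of this family, together with *Dpt*, which encodes dermatopontin, a small tyrosine-rich matrix protein that binds decorin. They were chosen by gene family with the FPKM of these same 4 libraries already known, and all 10 were found by symbol among the 23946 symbols listed in each library. The source was wild-type CD-1 mice at postnatal day 3. Bulk RNA-seq was made of CD51+;CD200+ cells from the coronal suture (COR), the sagittal suture (SAG), the posterior frontal suture (PF), and the growth plate (GP) of the tibia. The PF suture later fuses, whereas SAG and COR stay patent. The submitters label the cells as skeletal stem cells, and the sort took cells without CD45, Ter119, Tie2, Thy1, 6C3, and CD105. Each tissue has 1 library, so tissue and library cannot be told apart, no replicate error exists, and differences between tissues carry no p-value.

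In skeletal tissue these proteins coat collagen fibrils, set the spacing and thickness of the fibrils, and hold growth factors of the TGF-β and BMP groups in the matrix. Decorin and biglycan carry chondroitin or dermatan sulfate chains. Fibromodulin, lumican, osteoadherin, keratocan, and PRELP belong to the keratan sulfate branch of the family, and asporin has a run of aspartates in place of a chain. The family is prominent in tendon, cornea, bone, and the fibrous tissue of sutures.

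Values are FPKM, fragments normalized for transcript length and library size, as deposited, and a level of 1 FPKM or more was taken as measured. Because of how the genes were chosen, their levels and ratios are a description. The spacing of the lowest values, after multiplication by transcript length, put the fragments of PF at 43.1%, of GP at 82.7%, and of COR at 86.7% of those of SAG, which assumes scaling by fragment number. *Itgav*, which encodes CD51, was between 6.20 and 14.99 FPKM, and *Cd200* between 23.5 and 62.6 FPKM. COR lists *Sparc*, *Col3a1*, *Col1a2*, and *Col1a1* at 0, and GP lists *Col1a2* at 0, although these genes are high in the other libraries, so a 0 in the files can be a failed estimate. None of the 10 genes is listed at 0 in any library. In a bulk library, fewer cells of a type and less RNA per cell cannot be told apart.

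The family was among the most abundant messages of these cells. *Dcn*, *Bgn*, *Fmod*, *Lum*, and *Ogn* were at 200 FPKM or more in every library, as were 288 of all genes. *Aspn* also stayed above 100 FPKM in all 4 libraries. *Prelp* and *Omd* were lower, and *Kera* and *Dpt* were near 1 FPKM in most libraries and near 100 FPKM in a single library each. The summed level of the 10 genes was 8778 FPKM in GP, 6384 in PF, 6211 in COR, and 3101 in SAG. This sum was lowest in SAG, at 0.694% of the total FPKM there, and its share was 1.70% in GP, 1.27% in COR, and 1.16% in PF. The totals are without genes whose 0 can be a failed estimate, which include 3 collagen genes and *Sparc* in COR and *Col1a2* in GP. Other failed estimates were not searched for.

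**Figure D1:**
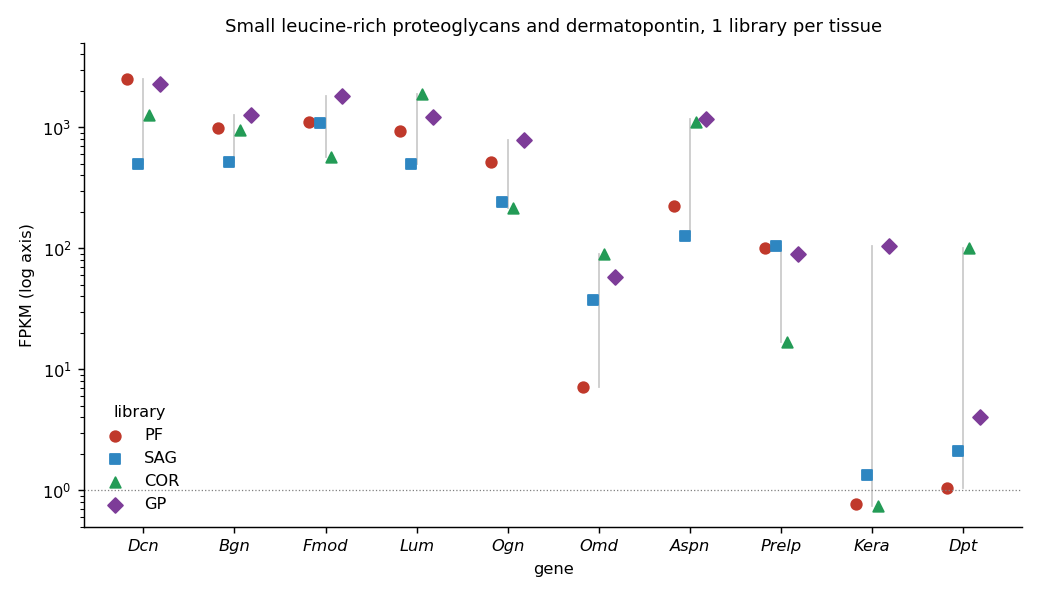
FPKM (log axis) of the 10 genes in the PF, SAG, COR, and GP libraries, with 1 point per library and a grey line from the lowest to the highest value. The libraries span 2.45-fold for *Bgn* and up to 12.6-fold for *Omd* among 8 of the genes, while *Kera* stands at 103.9 FPKM only in GP and *Dpt* at 100.1 FPKM only in COR among the 4 libraries.

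The leading gene differed between the libraries. *Dcn* was first in PF, where it made up 39.2% of the summed level, and in GP, with 25.8%. *Fmod* was first in SAG, with 34.8%, and *Lum* was first in COR, with 30.6%. *Bgn* kept the most even share, between 14.4% and 16.7%. *Aspn* took 18.0% of the sum in COR and 13.3% in GP but 3.48% in PF and 4.07% in SAG. By branch of the family, *Dcn* and *Bgn* together made up 54.7% of the sum in PF, 40.3% in GP, 35.6% in COR, and 32.7% in SAG. The 5 genes of the keratan sulfate branch made up 55.4% in SAG, 41.4% in COR, 37.5% in GP, and 33.7% in PF.

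**Figure D2:**
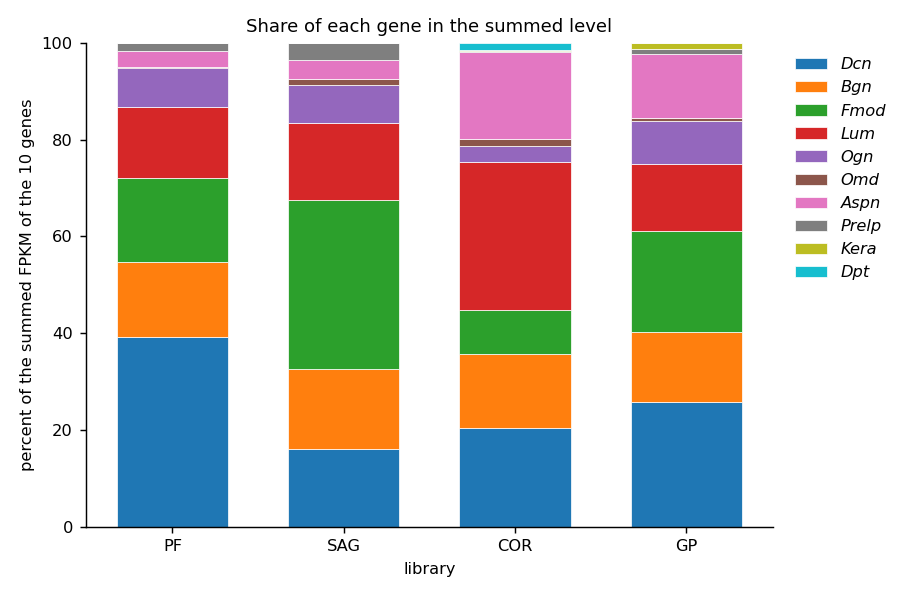
Share of each of the 10 genes in their summed FPKM, in percent, as a stacked bar per library. *Dcn* is the largest segment in PF and GP, *Fmod* in SAG, and *Lum* in COR, and *Aspn* is a large segment in COR and GP only.

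Ratios between libraries are differences of log2(FPKM + 1), so the change of low genes comes out too small, and a ratio of 3-fold or more, 1.58 on that scale, was counted. Between PF and SAG, *Dcn* was higher in PF and *Omd* lower, which is 2 of 10 genes. Of all 13490 genes compared there, 15.7% passed, 6.64% higher in PF and 9.04% lower. Between PF and COR, *Prelp* was higher in PF and *Omd*, *Aspn*, and *Dpt* were lower, 4 of the 9 genes compared. Of all genes 11.7% passed, 6.81% higher and 4.87% lower. Between COR and SAG, *Lum*, *Aspn*, and *Dpt* were higher in COR and *Prelp* was lower, 4 of 10, where of all genes 9.25% passed, 3.11% higher and 6.15% lower.

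Against GP, *Omd*, *Aspn*, and *Kera* were lower in PF, which is 3 of 10 genes. Of all genes 12.0% passed, 5.72% higher in PF and 6.24% lower. In SAG, *Dcn*, *Ogn*, *Aspn*, and *Kera* were lower than in GP, 4 of 10, where of all genes 8.66% passed, 4.80% higher and 3.86% lower. In COR, *Dpt* was higher and *Fmod*, *Ogn*, *Prelp*, and *Kera* were lower than in GP, 5 of 10. Of all genes 4.40% passed, 1.20% higher and 3.20% lower. Since these contrasts were known when the genes were proposed, the counts describe the list and are no test of it.

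The median log2 ratio of the genes was 0.43 for PF vs SAG and 1.05 for COR vs SAG, where the medians of all genes were 0.03 and -0.02. It was -0.66 for PF vs GP, -1.29 for SAG vs GP, and -0.63 for COR vs GP, where the medians of all genes were 0.03, 0.03, and 0.02. For PF vs COR it was 0.08, against 0.05 for all genes, and turned to -0.13 with quantile normalization and to -0.025 after a correction for GC content. The median for PF vs SAG was 0.14 with quantile normalization, 0.86 with a floor of 5 FPKM, and 0.96 relative to *Gapdh*, and that for PF vs GP was -0.19 relative to *Gapdh*. Of the 10 genes, 6 were higher in PF than in SAG and 4 were lower. Under the scalings and floors tried, the medians against GP stayed below 0 and those of PF and COR against SAG stayed above 0, while PF and COR were not ordered.

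**Figure D3:**
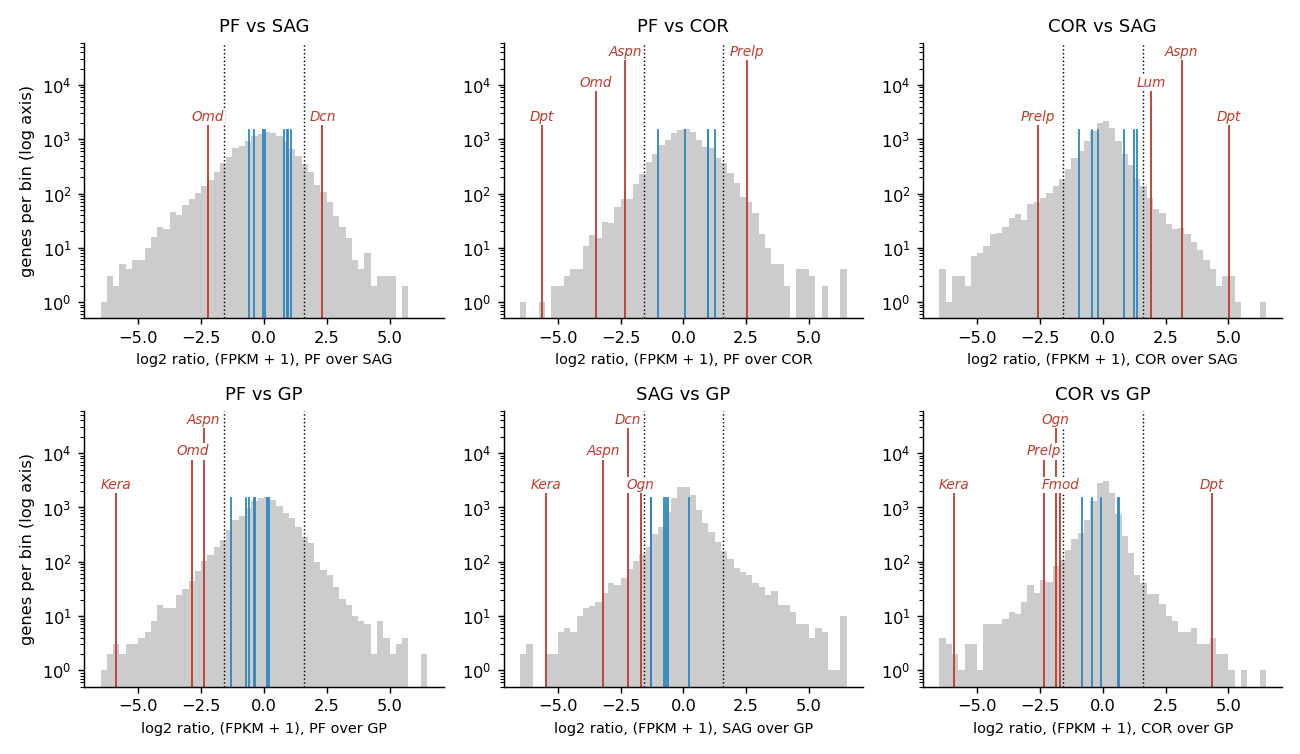
Number of genes (log axis) by log2 ratio of FPKM + 1 in each of the 6 pairs of libraries, with ratios beyond the ends of the axis gathered in the last bars. Vertical lines mark the 10 genes, named and in red where they pass 3-fold (dotted lines) and in blue where they do not, and *Kera*, *Dpt*, *Omd*, *Aspn*, and *Prelp* lie in the tails.

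Over all 4 libraries, the highest level was 3-fold or more above the lowest for 9 of the 10 genes, all but *Bgn*, compared with 24.7% of the 13998 genes at 1 FPKM or more in a library. For 4 of them a single library stood apart from each of the other 3 by 3-fold or more. *Kera* was higher in GP, where 0.979% of all genes were. *Dpt* was higher in COR, where 0.400% of all genes were. *Prelp* was lower in COR (0.236% of all genes) and *Omd* lower in PF (2.09% of all genes). No member stood higher in PF (2.69%) or SAG (2.85%), or lower in SAG (0.636%) or GP (0.257%). For *Dcn*, *Lum*, *Fmod*, *Ogn*, and *Aspn*, the highest and the next library were at most 1.65-fold apart in FPKM, so the top places in their order rest on small differences with no replicate error behind them.

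*Dcn* encodes decorin, which binds type I collagen and limits the lateral growth of fibrils, and also binds TGF-β. In mm9 it lies on chromosome 10 (96942245 to 96980777, plus strand), and its longest coding transcript has 8 exons. *Dcn* was at 2503 FPKM in PF, 2268 in GP, 1271 in COR, and 496 in SAG. The PF and GP values lay close together and SAG was far below them, the log2 ratio being 2.33 in PF over SAG and -2.19 in SAG over GP. It was the gene of rank 11 in the PF library, 9 in GP, 23 in COR, and 100 in SAG.

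*Bgn*, on chromosome X (70728941 to 70741272, plus strand, 8 exons), encodes biglycan, a close relative of decorin that is abundant around bone cells. It was at 1266 FPKM in GP, 992 in PF, 941 in COR, and 517 in SAG. Its range of 2.45-fold was the narrowest of the 10 genes, and no pair of libraries reached 3-fold.

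*Aspn* encodes asporin, which shares the collagen binding of decorin and can restrain TGF-β and BMP signals. It lies on chromosome 13 (49639812 to 49662926, plus strand, 8 exons). *Aspn* was at 1166 FPKM in GP, 1115 in COR, 222 in PF, and 126 in SAG. COR and GP formed a high pair, close to each other, and PF and SAG a low pair. The gene lies within the span of *Cenpp*, described with *Omd*. The log2 ratio was -2.32 for PF vs COR, 3.13 for COR vs SAG, -2.39 for PF vs GP, and -3.20 for SAG vs GP. The *Aspn* transcript has 34.4% GC. After correction for GC content, PF vs SAG rose from 0.81 to 1.55, just under 3-fold, so PF and SAG were less alike. PF vs COR at -1.94 and PF vs GP at -1.79 were smaller but stayed past 3-fold. Markers of osteoblasts were also high in COR. Their summed level over 10 genes was 12507 FPKM in COR, 8299 in GP, 2988 in PF, and 911 in SAG, with all 10 genes at 1 FPKM or more in COR and GP and 9 in PF and SAG. *Spp1* carried most of the sum in COR and GP, and without it the other 9 genes summed to 4183 FPKM in COR, 1417 in GP, 1339 in PF, and 294 in SAG. All 10 markers were highest in COR, whereas between GP and PF 5 were higher in GP and 5 in PF. The part of osteoblast RNA in the *Aspn* difference was not tested.

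*Fmod* encodes fibromodulin, which binds collagen beside lumican and is needed for normal tendon fibrils. Its position is chromosome 1 (135933831 to 135944854, plus strand, 3 exons). *Fmod* was at 1828 FPKM in GP, 1110.3 in PF, 1078 in SAG, and 565 in COR. Unlike the other abundant members it was close in PF and SAG, with a log2 ratio of 0.04. COR was the lowest, and COR vs GP, at -1.69, was the only pair past 3-fold. Relative to *Gapdh* that pair fell below 3-fold.

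*Lum* encodes lumican, a keratan sulfate proteoglycan of cornea, skin, and tendon that regulates fibril thickness. The gene is on chromosome 10 (97028135 to 97035337, plus strand, 3 exons). *Lum* was at 1898 FPKM in COR, 1213 in GP, 931 in PF, and 497 in SAG. It was highest in COR, where *Fmod* was lowest, and it held rank 9 among all genes of that library. Only COR vs SAG passed 3-fold, with a log2 ratio of 1.93.

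*Prelp* encodes a proline- and arginine-rich family member that binds heparan sulfate of basement membranes as well as collagen. It maps to chromosome 1 (135806881 to 135817991, minus strand, 3 exons). *Prelp* was at 105.1 FPKM in SAG, 101.4 in PF, 88.9 in GP, and 16.8 in COR. PF, SAG, and GP lay close together and COR stood below all of them. The log2 ratio was 2.52 for PF vs COR, -2.57 for COR vs SAG, and -2.33 for COR vs GP. The low value in COR corresponds to an estimated 2129 fragments, from the spacing of the lowest values. *Prelp* overlaps the noncoding gene *Gm15851* on the opposite strand, and the library kit is not stated to keep strand.

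*Kera* encodes keratocan, best known as a corneal proteoglycan and also made by tendon cells. Its place is chromosome 10 (97069817 to 97076322, plus strand, 5 exons). *Kera* was at 103.9 FPKM in GP, 1.35 in SAG, 0.777 in PF, and 0.737 in COR. The 3 sutures were all near 1 FPKM, and GP was 77.1 times the next library in FPKM, the widest gap of this kind among the 10 genes. The log2 ratio was -5.88 for PF vs GP, -5.48 for SAG vs GP, and -5.92 for COR vs GP. The suture values correspond to an estimated 27 fragments in PF, 107 in SAG, and 51 in COR, compared with 6810 in GP. The cDNA was amplified, so these fragments need not be separate messages, and whether suture cells express *Kera* was not tested.

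Markers of tenocytes were high in GP as well. Without *Kera* and *Fmod*, which are members of both lists, the 5 remaining markers summed to 2108 FPKM in GP, 542 in PF, 245 in SAG, and 373 in COR. All 5 were at 1 FPKM or more in GP, SAG, and COR, and 4 were in PF. *Tnmd*, which encodes the tendon membrane protein tenomodulin, was at 1379 FPKM in GP, 401 in PF, 142 in SAG, and 69.6 in COR. *Thbs4*, a thrombospondin of tendon, was at 119.8 FPKM in GP and between 0.840 and 3.01 in the sutures. *Scx*, the tendon transcription factor scleraxis, was less uneven, at 168 FPKM in GP, 107 in COR, 60.2 in PF, and 11.3 in SAG. The part of tendon or ligament cells in the *Kera* difference was not tested. A sulfotransferase that acts on keratan sulfate, *Chst5*, was also highest in GP, at 20.8 FPKM, compared with 0.176 in PF, 1.97 in SAG, and 0.934 in COR.

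*Omd* encodes osteoadherin, a bone matrix proteoglycan of osteoblasts that binds the integrin formed with CD51, the sorting antigen. The mm9 position is chromosome 13 (49678135 to 49687978, plus strand, 3 exons). *Omd* was at 89.2 FPKM in COR, 57.5 in GP, 37.3 in SAG, and 7.10 in PF. PF stood below the other libraries, with a log2 ratio of -2.24 to SAG, -3.48 to COR, and -2.85 to GP. The PF value corresponds to an estimated 192 fragments. The PF library was lower for AT-rich genes in general. At 40% GC the fitted log2 ratio of PF to SAG was -0.54, and at 60% it was 0.68. The *Omd* transcript has 34.9% GC, and after correction for GC content the PF vs SAG ratio was -1.52, which is under 3-fold, while PF vs COR at -3.09 and PF vs GP at -2.26 stayed past it. The *Omd* gene also lies within the span of *Cenpp*, a centromere gene on the opposite strand, whose own level was 1.37 FPKM in PF and 7.67, 6.90, and 7.53 in SAG, COR, and GP. This overlap is of whole gene spans, and overlap of exons was not checked. Where exons do overlap, reads of the genes cannot be told apart without strand.

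*Ogn* encodes osteoglycin, also called mimecan, which was first described in bone and lacks a chain in many tissues. It is found on chromosome 13 (49703440 to 49719869, plus strand, 7 exons), also within the span of *Cenpp*. *Ogn* was at 783 FPKM in GP, 516 in PF, 242 in SAG, and 214 in COR. GP and PF were the higher pair. SAG and COR were both more than 3-fold below GP, with log2 ratios of -1.69 and -1.87. The SAG vs GP ratio fell below 3-fold with quantile normalization. With 36.3% GC, *Ogn* passed 3-fold also in PF over SAG (1.78) and PF over COR (1.65) after correction for GC content, from 1.09 and 1.26.

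*Dpt* encodes dermatopontin, which promotes assembly of collagen fibrils and binds decorin together with TGF-β. Its span is on chromosome 1 (166726863 to 166754397, plus strand, 4 exons), apart from the other members. *Dpt* was at 100.1 FPKM in COR, 4.01 in GP, 2.11 in SAG, and 1.05 in PF. COR was 24.9 times the next library in FPKM, and the other libraries were all near the floor. The log2 ratio was -5.62 for PF vs COR, 5.02 for COR vs SAG, and 4.33 for COR vs GP. By the estimate above these values rest on 5724 fragments in COR, 219 in GP, 139 in SAG, and 30 in PF. With a pseudocount of 0.1, *Dpt* also passed 3-fold between PF and GP.

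*Dpt* is widely used as a marker of fibroblasts of fascia and other loose connective tissue. The 10 genes of that list summed to 393 FPKM in GP, 306 in PF, 202 in COR, and 94.0 in SAG, with 7 of them at 1 FPKM or more in GP, 8 in PF, 6 in COR, and 6 in SAG. None of the 10 was highest in COR. In COR, *Sfrp4* was at 72.8 FPKM, *Cd34* at 39.8, *Ly6a* at 32.9, *Col14a1* at 24.2, *Pdgfra* at 17.7, and *Mfap5* at 14.5. *Sfrp4* and *Ly6a* were second highest there, after GP. The other 4 were low in COR, with *Dpp4* at 0.156 FPKM, *Clec3b* at 0.0675, *C3* at 0.0406, and *Pi16* at 0.0258, of which *Pi16* and *C3* were below 1 FPKM in every library. The osteoblast list given above was highest in COR. The part of either list in the *Dpt* difference was not tested.

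*Omd* and *Dpt* had the same order of libraries, COR, GP, SAG, and PF from high to low, and their upstream sequences are shown because they hold a common run of letters. The 250 bases before the RefSeq transcription start were read for the 8 members in the RefSeq promoter table (build GRCm38.p6), which are all but *Dcn* and *Lum*. Each of these windows has 1 exact match in mm9. The 2 windows below are on the plus strand, 5′ to 3′, and capitals mark the longest run shared by any pair of the 8 windows. The *Dpt* window is chr1:164796413-164796662 in GRCm38.p6 and chr1:166726544-166726793 in mm9, and the *Omd* window is chr13:49582212-49582461 in GRCm38.p6 and chr13:49677581-49677830 in mm9.
Dpt: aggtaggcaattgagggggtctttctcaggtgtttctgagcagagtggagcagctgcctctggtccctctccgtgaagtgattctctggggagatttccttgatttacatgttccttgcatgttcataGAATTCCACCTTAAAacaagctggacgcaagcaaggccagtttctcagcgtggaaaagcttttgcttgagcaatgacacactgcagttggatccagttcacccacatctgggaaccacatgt
Omd: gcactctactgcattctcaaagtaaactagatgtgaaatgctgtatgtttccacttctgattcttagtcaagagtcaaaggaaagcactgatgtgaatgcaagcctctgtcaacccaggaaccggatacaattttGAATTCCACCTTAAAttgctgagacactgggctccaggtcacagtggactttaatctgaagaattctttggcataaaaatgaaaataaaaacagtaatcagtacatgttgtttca

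The shared run has 15 bases and lies at positions -122 to -108 before the start of *Dpt* and -115 to -101 before that of *Omd*. These positions count from the RefSeq starts. The GENCODE spans given above begin further downstream in mm9, at 166726863 for *Dpt* and 49678135 for *Omd*, so the run lies farther from those starts. Of 32851 windows of this length in the table, searched on both strands, 2 hold it, and these are the windows of *Dpt* and *Omd*. *Ogn* and *Omd* share 11 bases that overlap this run, TTGAATTCCAC. The run was noticed after the sequences and levels had been seen, and it is a match of letters with no site or factor assigned.

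Common motifs were also counted in the same windows on both strands. The E-box CANNTG, the core bound by basic helix-loop-helix factors such as Twist1 and scleraxis, was in 5 of the 8 windows and in 66.2% of all windows. *Dpt* held 6 matches and *Ogn* 3, and *Omd*, *Kera*, and *Prelp* held none. The TATA motif TATAAA was in 2 windows, those of *Aspn* and *Ogn*, and in 12.4% of all windows. The GC box GGGCGG was in the *Bgn* window only, with 3 matches, and in 32.7% of all windows. The TEAD motif GGAATG was in the *Ogn* window only (12.6% of all windows), and the AP-1 motif TGANTCA was in none of the 8 (6.75% of all windows).

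Ratios between 2 members within a library do not depend on how the libraries were scaled, and they are per length because FPKM is. The ratio of *Dcn* to *Lum* was 2.69 in PF, 1.87 in GP, 0.9996 in SAG, and 0.670 in COR. The balance thus lay toward decorin in PF and toward lumican in COR. That of *Fmod* to *Lum* was 2.17 in SAG, 1.51 in GP, 1.19 in PF, and 0.298 in COR, lowest again in COR. For *Dcn* to *Aspn* the ratio was 11.3 in PF, 3.93 in SAG, 1.95 in GP, and 1.14 in COR, so the message of asporin approached that of decorin only in COR among these libraries. In contrast, the ratio of *Bgn* to *Lum* was near 1 in PF, SAG, and GP and was 0.496 in COR. The steadiest pair was *Fmod* and *Ogn*, with a range of 2.07-fold. They were also the members with the most similar profile, at a Euclidean distance of 0.82 on mean-centred log2 values. None of these ratios is corrected for GC content, which differs between members, at 53.7% for *Fmod* and 36.3% for *Ogn*. After that correction the log2 ratio of PF to SAG was -0.22 for *Fmod* and 1.78 for *Ogn*, from 0.04 and 1.09. The steadiness of this pair therefore holds for uncorrected values only.

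Most of the members lie in 3 stretches of the genome, in which neighbours were alike in some libraries and apart in others. On chromosome 10, *Dcn*, *Lum*, *Kera*, and *Epyc* follow each other on the plus strand within 202.8 kb, with no annotated gene lying wholly between neighbours. In GP all 4 were at 49.0 FPKM or more. In the sutures *Kera* was near 1 FPKM although its neighbour *Lum*, 34.5 kb away, was at 497 FPKM or more. *Epyc*, the cartilage member epiphycan, was at 69.3 FPKM in PF, 49.0 in GP, 37.0 in SAG, and 6.41 in COR, lowest in COR where *Lum* was highest.

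On chromosome 13, *Ecm2*, *Aspn*, *Omd*, and *Ogn* follow each other on the plus strand within 119.7 kb. Their transcripts are AT-rich, between 34.4% and 40.3% GC. *Aspn* and *Omd*, 15.2 kb apart, were both higher in COR and GP than in PF. *Ogn*, a further 15.5 kb on, was lower in COR than in PF. Per length, *Ogn* was 72.7 times *Omd* in PF, 13.6 in GP, 6.47 in SAG, and 2.40 in COR, a range of 30.3-fold between neighbouring genes. *Ecm2*, which encodes a related matrix protein, was at 33.0 FPKM in SAG, 32.6 in GP, 18.0 in COR, and 13.6 in PF.

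On chromosome 1, *Optc* and *Prelp* lie 2.30 kb apart on the minus strand, and *Fmod* lies 115.8 kb beyond on the plus strand. All 3 were lower in COR than in PF and SAG. *Optc*, which encodes opticin, was at 18.7 FPKM in SAG, 10.1 in PF, 0.641 in COR, and 0.465 in GP, so in GP it was low where *Prelp* was not.

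**Figure D4:**
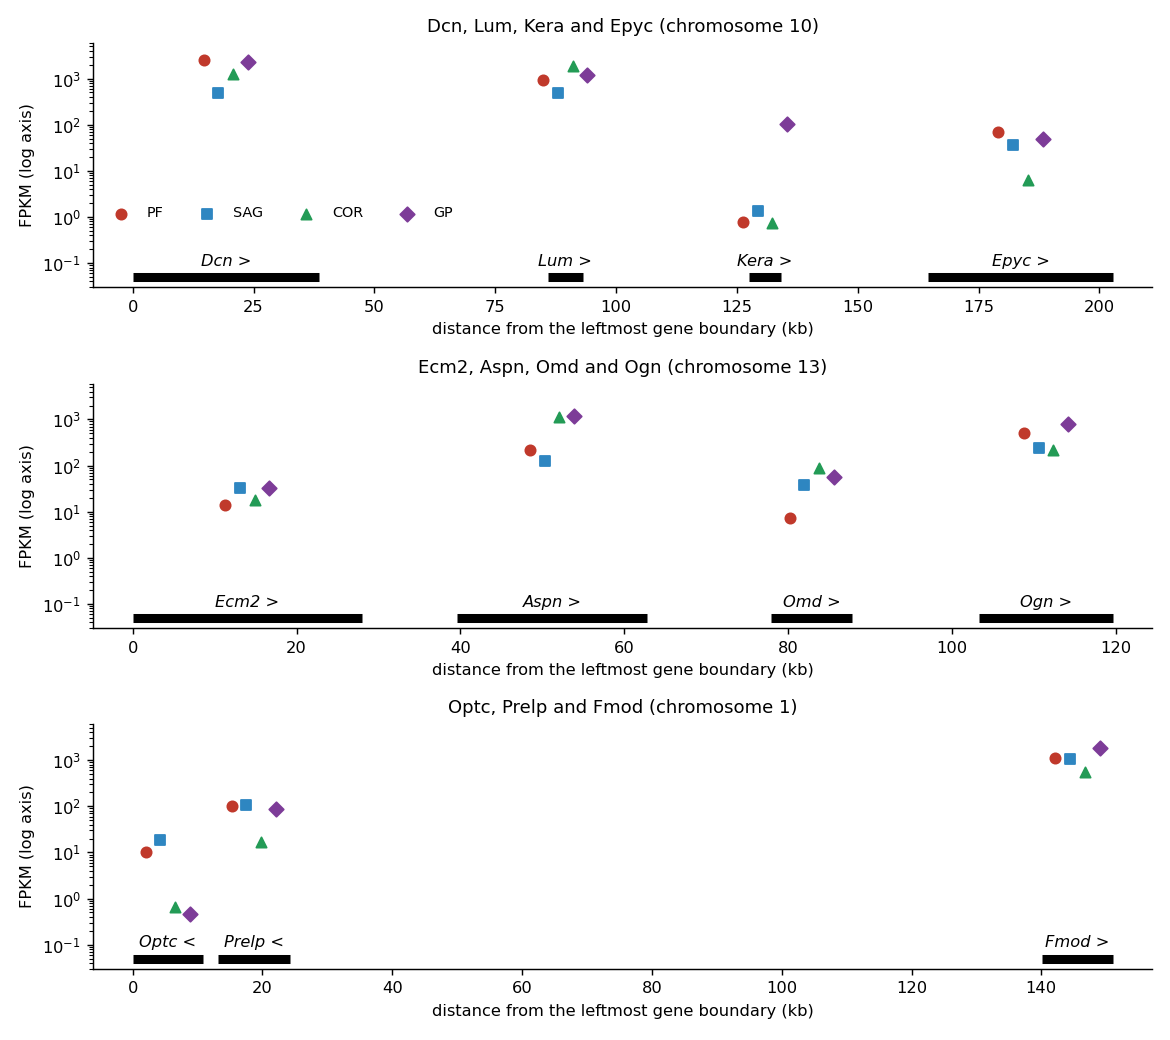
FPKM (log axis) of small leucine-rich proteoglycan genes at their places in the 3 genomic stretches, against the distance in kb from the leftmost gene boundary. Black bars are gene spans with an arrow for the strand, points are the 4 libraries spread sideways for clarity, and *Kera* shows GP far above the sutures while *Lum* beside it does not.

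Of 9 further genes of the family and its nearest relatives, *Chad* had the highest levels. *Chad*, which encodes the cartilage protein chondroadherin, was at 631 FPKM in GP, 223 in PF, 220 in SAG, and 54.9 in COR. *Podnl1* was at 46.6 FPKM in COR, 27.6 in GP, 10.01 in SAG, and 5.08 in PF, the order of *Omd* and *Dpt*. *Chadl* was higher in SAG (42.5 FPKM) and GP (33.9) than in PF (8.14) and COR (7.17). Between COR and SAG, 4 of 9 relatives were lower in COR by 3-fold or more (*Epyc*, *Optc*, *Chad*, and *Chadl*) and *Podnl1* was higher. Of all genes 6.15% were lower in COR there and 3.11% higher.

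Enzymes that build the linker and the chondroitin or dermatan sulfate chains numbered 22. Between COR and GP, 3 of the 22 passed 3-fold, where 4.40% of all genes did, and between COR and SAG 2 of 20 did, where 9.25% of all genes did. For PF vs SAG 2 of 19 passed, where 15.7% of all genes did, and for PF vs COR 2 of 20, where 11.7% did. For PF vs GP 1 of 22 passed, where 12.0% of all genes did, and for SAG vs GP 1 of 22, where 8.66% did. *Chpf* and *Chpf2*, subunits of chondroitin polymerization, reached 219 and 57.7 FPKM in PF and 50.7 and 15.02 in SAG, a difference in the direction of *Dcn*. *Csgalnact1* and *Chst15* went the other way between PF and SAG, under 3-fold. *Csgalnact1* was at 27.7 FPKM in SAG, 12.4 in GP, 11.3 in PF, and 3.46 in COR. *Chst15* was at 6.87 FPKM in COR, 3.77 in GP, 3.55 in SAG, and 0.606 in PF. *Chsy3* was at 23.5 FPKM in GP, 12.2 in COR, 8.68 in PF, and 4.19 in SAG. *Chst13*, a chondroitin sulfotransferase, was at 7.91 FPKM in COR, 1.62 in GP, 0.086 in PF, and 0.135 in SAG.

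Of 9 enzymes of keratan sulfate, 2 passed 3-fold between COR and GP, where 4.40% of all genes did, and 2 of 8 between SAG and GP, where 8.66% did. Between COR and SAG none of 9 passed, where 9.25% of all genes did. It was 1 of 9 for PF vs SAG (15.7% of all genes), 1 of 8 for PF vs COR (11.7%), and 1 of 9 for PF vs GP (12.0%). *Chst5*, described with *Kera*, had the widest range. *Chst1* was at 9.32 FPKM in PF, 8.41 in GP, 4.13 in SAG, and 1.98 in COR, lowest in COR like *Fmod* and *Prelp*. *B3gnt2*, which extends the chain, was at 23.3 FPKM in SAG, 13.6 in GP, 7.16 in COR, and 4.41 in PF.

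Many fibril collagens and their partners were lower in SAG than in PF. Of 21 genes, 12 were 3-fold or more higher in PF than in SAG and 1 was lower, where of all genes 6.64% were higher and 9.04% lower. The median log2 ratio of the 21 genes was 1.64, against 0.03 for all genes. Between COR and SAG, 10 of 20 were higher in COR and 4 lower, but 3 of the 4 were the collagens listed at 0 in COR. Of all genes 3.11% were higher in COR there and 6.15% lower. *Pcolce*, which encodes an enhancer of procollagen processing, was at 1920.4 FPKM in PF, 1327 in COR, 1136 in GP, and 298 in SAG. *Pcolce2*, its relative, was the 1 gene lower in PF than in SAG by 3-fold or more, at 52.3 FPKM in GP, 34.8 in SAG, 5.23 in PF, and 4.30 in COR. The cartilage collagen *Col11a1*, at 159 FPKM in SAG and 90.7 in PF, and *Fn1*, at 138 in SAG and 67.8 in PF, were also higher in SAG, under 3-fold, and were picked after their values were seen. *Col5a3*, a chain of type V collagen, was at 15.3 FPKM in GP, 9.91 in COR, 4.36 in PF, and 0.980 in SAG.

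Among 16 growth factors and receptors that these proteoglycans are known to bind, 3 of the 13 compared passed 3-fold between COR and SAG, where 9.25% of all genes did. Between SAG and GP 3 of 15 passed, where 8.66% of all genes did, and between PF and SAG 3 of 15, where 15.7% did. It was 1 of 15 for PF vs COR (11.7% of all genes), 2 of 15 for PF vs GP (12.0%), and 1 of 15 for COR vs GP (4.40%). *Tgfb1* was at 30.2 FPKM in COR, 8.92 in GP, 6.002 in SAG, and 2.63 in PF, with the order of *Omd* and *Dpt*. *Bmp4* was at 73.5 FPKM in SAG, 45.0 in PF, 15.7 in COR, and 14.1 in GP, and *Bmp2* was lowest in PF, at 7.79 FPKM, and at most 36.1 in the others, reached in SAG. *Wisp1*, a matricellular protein that binds decorin and biglycan, was at 57.0 FPKM in COR, 52.4 in GP, 38.0 in PF, and 12.8 in SAG.

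Markers of other cell types were summed per list to show what else differed between the libraries. Chondrocyte markers (8 genes) reached 3833 FPKM in SAG and 2802 in GP, compared with 162 in COR and 132 in PF. Choroid plexus markers (8 genes) were at 5351 FPKM in SAG, of which *Ttr* made up 5103, and at 506 in PF, 201 in COR, and 56.7 in GP. SAG, the library with the lowest summed proteoglycan level, was thus the highest for both sums. Not every gene followed the sums. *Acan*, *Hapln1*, and *Snorc* were highest in GP, and *Col2a1* made up 1750 FPKM of the chondrocyte sum in SAG. Among choroid plexus markers, *Aqp1* was lowest in SAG and *Prlr* was highest in GP. The part of these lists in the low proteoglycan level of SAG was not tested. Mural and smooth muscle markers (7 genes) were at 828 FPKM in PF, 620 in GP, 332 in COR, and 69.6 in SAG, the order of *Dcn*. *Acta2* made up 530 of the PF sum and *Tagln* 221, and both had that order, as did *Cnn1* and *Des*. *Rgs5* and *Myh11* were higher in GP than in PF, and *Cspg4* was highest in COR and lowest in PF. The part of these markers in the *Dcn* difference was not tested either. Meningeal fibroblast markers (10 genes) were between 1033 and 3522 FPKM, but *Mgp*, which cartilage also expresses, made up 3311 of the highest sum.

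The remaining lists were low. Leukocyte markers (8 genes) summed to between 4.77 and 35.1 FPKM, with *Tyrobp* at 0 in every library. Endothelial markers (7 genes) summed to between 5.65 and 23.5 FPKM, with *Pecam1* at 0.295 or less. Erythroid markers (5 genes) summed to 15.6 FPKM in PF and to between 1.83 and 1.94 in the others. Skeletal muscle markers (6 genes) summed to 2.11 FPKM in COR, 3.14 in PF, and 4.59 in GP and were highest in SAG, where *Tnnt3* was at 6.02, with *Myod1* at 0 in every library.

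**Figure D5:**
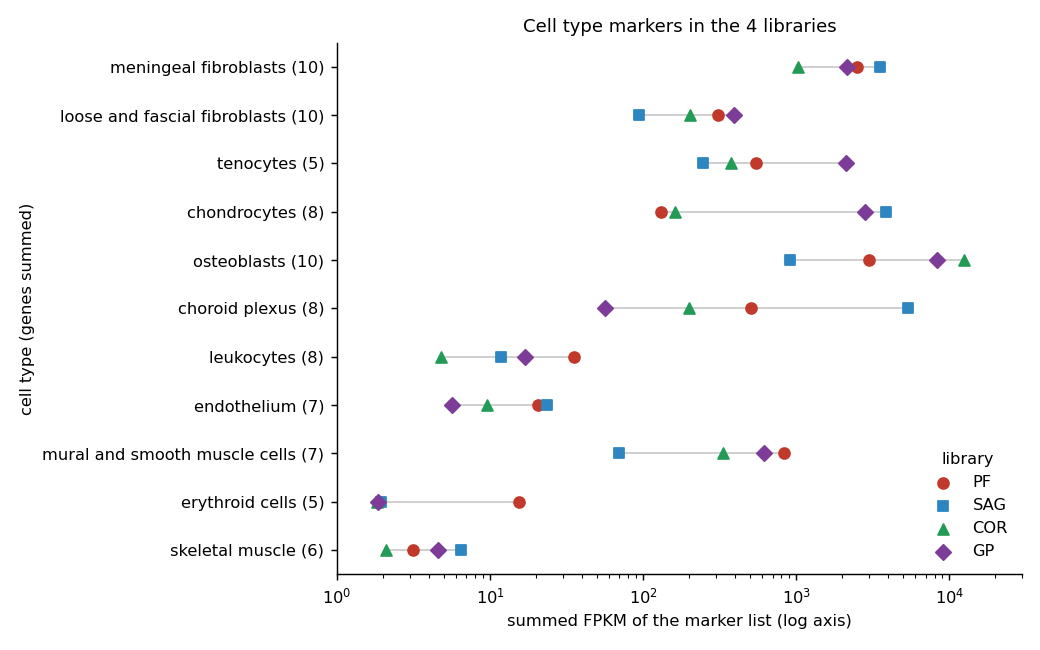
Summed FPKM (log axis) of the marker genes of 11 cell types in the PF, SAG, COR, and GP libraries, with the number of genes summed in brackets and 1 point per library. Tenocyte markers are highest in GP (2108 FPKM), osteoblast markers in COR (12507 FPKM), and chondrocyte and choroid plexus markers in SAG (3833 and 5351 FPKM).

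The genes with the most similar profile to each member were found by Euclidean distance of mean-centred log2(FPKM + 1) over the 4 libraries, among 9802 genes at 5 FPKM or more in a library. With 4 points per gene, near neighbours are many and the distance is only a description. Nearest to *Dcn* was *Pdgfrl*, at 409 FPKM in PF, 336 in GP, 192 in COR, and 73.7 in SAG, a distance of 0.11. *Lum* was nearest to *Coro1c*, *Tspo*, and *Anxa5*, at distances of 0.10 to 0.14. *Fmod* was nearest to *Itm2a*, at a distance of 0.30, *Ogn* to *Tmem173*, at 0.13, and *Omd* to *Snora41*, at 0.22. *Prelp* was nearest to *Itga7*, the laminin receptor subunit, at 12.3, 12.7, 1.34, and 11.8 FPKM in PF, SAG, COR, and GP, and next to *Col8a1*. *Aspn* was nearest to *Cav1* and then to *Spp1*, the osteoblast gene of osteopontin, which was at 8324 FPKM in COR, 6882 in GP, 1649 in PF, and 617 in SAG. *Kera* was nearest to *Snord42b*, a small nucleolar RNA gene, and then to *Pitx1* and *Hoxa10*, transcription factors of the limb, at distances of 0.59 and 0.65, and both were below 1 FPKM in every suture. *Dpt* had no close neighbour, since the nearest, *Duoxa1*, was at a distance of 0.71 and the next were small nucleolar RNA genes.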

How the data were processed

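RNA was measured in CD51+;CD200+ cells of 4 tissues, with 1 library each. Read quality was checked by the authors in FastQC. Alignment to mm9 used STAR 2.5.1b, and abundance was estimated with Cuffdiff from Cufflinks 2.2.1 and the iGenomes annotation. Each file deposited by them gives 1 FPKM value per symbol. How Cuffdiff scaled the libraries is not given in the sources used here. The cDNA was amplified with a low-input kit.

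From these values, log2(FPKM + 1) ratios were computed for genes at 1 FPKM or more in at least 1 library of a pair. Ratios of 3-fold or more were counted. The study also used 3-fold but required a significant difference as well, which was not repeated, so the counts are not comparable with its own. There were no replicates, so no test was made. The depth of each library was estimated as the repeat spacing of FPKM multiplied by transcript length, over genes with a longest coding transcript of 2000 bases or more, and the number of fragments behind a value by dividing by that spacing. This covers counting error only. Positions, lengths, and GC content are from the GENCODE annotation of mm9, in which all 10 genes were found. Promoters are those of RefSeq on GRCm38.p6, and the motifs were searched on both strands.

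The members and gene lists were chosen with earlier results of these data known. Every member was named. Listed genes other than cell type markers were named if they passed 3-fold in a pair and reached 5 FPKM in the higher library. At most 6 per list were named this way, in order of ratio. *Ecm2*, *Col11a1*, and *Fn1* were named outside this rule, as were the cell type markers. The 3 nearest profiles were found for each member past 3-fold. Markers of 11 cell types, relatives of the family, enzymes of both kinds of chain, matrix partners, and ligands and receptors were listed. 1 listed symbol was matched through a RefSeq synonym. The alternatives were other pseudocounts, scalings, floors, and folds. The counting of ratios past 3-fold was checked on simulated libraries with known changes well past that fold in well-expressed genes. Genes at low levels, the depth estimate, the GC correction, the nearest profiles, and the promoter search were not simulated. Python 3.11.15 with numpy 2.4.6, pandas 2.3.3, statsmodels 0.14.6, and matplotlib 3.10.9 was used.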

Additional observations from a re-analysis of the deposited data

How the results depend on the processing

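No paired analysis was possible because there were no replicates to pair. The GC correction was chosen after seeing the data. The ratios of the members numbered 59 over the 6 pairs, of which 22 passed 3-fold, and none of the 22 changed sign under any alternative run. At most 1 of the 22 fell below 3-fold under each alternative: *Omd* for PF vs SAG after the GC correction, *Ogn* for SAG vs GP with quantile normalization, and *Fmod* for COR vs GP relative to *Gapdh*. At most 2 others passed it. *Gapdh* itself was lower in PF than its mean over the libraries by a log2 value of -0.33 and higher in SAG by 0.20, so division by it raises every PF vs SAG ratio. The median log2 ratio for PF vs COR, 0.08, was -0.13 with quantile normalization and -0.025 after the GC correction, and the cause was not tested. With a threshold of 5-fold, 3 members passed for COR vs GP, 1 for PF vs SAG, and 2 for SAG vs GP, in place of 5, 2, and 4. The counts were 4 for PF vs COR, 3 for COR vs SAG, and 3 for PF vs GP, in place of 4, 4, and 3. The share of all genes past 5-fold was not computed, so these counts show only the effect of the threshold on the list. Filters on low values could not change the ratios themselves, only which genes were compared. By the depth estimate, PF was the shallowest library, which limits the low values of *Kera*, *Dpt*, and *Omd* there.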
